A study of Mus musculus with 23 samples.

Results

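Deep intron sites were the crosslink sites that fell within a gene on the strand of its transcript, in no exon of that strand, and more than 500 nt from the nearest exon edge of that strand. They made up 282546 of the 1346716 sites in 6 site lists of CTCF iCLIP2, an assay in which UV light joins a protein to the RNA it touches, the protein is pulled down, and the nucleotide before the end of each cDNA marks the contact. Gene bodies and exons were those of the GENCODE annotation of mm10, and every site fell on chromosomes 1 to 19, X or Y. The comparison asked where in introns CTCF contacts were called in each condition, and whether they differed when the first zinc finger of CTCF was missing.

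The samples were 23 libraries of nuclei from mouse embryonic stem cells (ESC) of the E14 line and from neural progenitor cells (NPC) made from them by 2 days of differentiation. Both CTCF alleles carried an auxin-inducible degron, and a Flag-Halo-tagged CTCF, either wild type (WT) or without zinc finger 1 (ΔZF1), stood under a doxycycline promoter at the Tigre locus. All groups, controls included, received 1 µM 5-Ph-IAA, which degrades the endogenous protein, and 1 µg/mL doxycycline for 24 h. ESC WT, ESC ΔZF1 and NPC ΔZF1 had 4 libraries each and NPC WT had 3, irradiated with 400 mJ/cm2 at 254 nm, while ESC noXL and NPC noXL had 4 libraries each of the WT line that got no UV. The libraries of a group were merged before sites were called, so each group was a single list with no replicate spread. All differences below therefore come without a test, and the 95% intervals beside them cover counting error only. The WT and noXL lists came from the WT line and the ΔZF1 lists from another line, so a difference between the lines and the absence of the zinc finger cannot be told apart.

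CTCF is a zinc finger protein that holds chromatin loops at their anchors, and several of its fingers, the first among them, have been linked to RNA binding. Introns make up most of a nascent transcript and are removed by splicing, so a nuclear protein that touches unspliced RNA leaves contacts far from exons. UV light at this wavelength joins protein to uridine more readily than to the other bases, which makes the base under a site a check on whether a call came from crosslinking or from RNA that came down without it.

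The nucleotides called in all 4 irradiated lists and in neither control list were few, 71 of 273751 distinct deep intron nucleotides. The 6 of them that scored highest in their lists (ranked by the lowest of the 4 score percentiles), with no control site within 5 nt and 1 per gene, are shown as the highest scoring of these recurrent contacts, each as 41 nt of RefSeq GRCm38 (mm10) on the strand of the gene, with the called base in capitals.
Gm48099, chr14:19278124-19278164, plus strand: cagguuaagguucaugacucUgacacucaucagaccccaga
9330185C12Rik, chr1:113904249-113904289, minus strand: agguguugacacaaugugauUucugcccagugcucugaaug
Gm47283, chrY:90801460-90801500, plus strand: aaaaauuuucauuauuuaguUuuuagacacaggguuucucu
Kcnip1, chr11:33754900-33754940, minus strand: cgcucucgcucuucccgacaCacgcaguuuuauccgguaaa
Gm11292, chr13:22029261-22029301, plus strand: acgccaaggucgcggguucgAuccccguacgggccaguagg
Gm47381, chr13:91263791-91263831, plus strand: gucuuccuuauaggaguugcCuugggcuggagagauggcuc

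These 6 windows did not look alike. The called base was U in 3 of them, C in 2 and A in 1, and the number of uridines in the window ran from 6 in Gm11292 to 19 in Gm47283. The Kcnip1 site, in a gene for a protein that binds potassium channels, lay 88210 nt from the nearest exon in an intron of 197502 nt. The Gm11292 site lay 1911 nt from the exons of GENCODE but inside a transfer RNA gene of RefSeq, n-TIaat7, on the same strand. Of the 161 nucleotides called in all 4 irradiated lists, with or without a control call, 36.6% (29.6 to 44.3) were uridine and 49.1% lay in sequence that the genome file marks as repeat. Of the 71 without a control call, 49.3% (38.0 to 60.7) were uridine. The interval includes the 53.1% of all ESC ΔZF1 deep intron sites and lies below the shares of the other 3 irradiated lists, 64.2% (ESC WT), 66.7% (NPC WT) and 62.1% (NPC ΔZF1).

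For comparison, the 3 highest ranked nucleotides that both unirradiated lists called, with no irradiated call within 5 nt, are shown in the same way.
Il31ra, chr13:112578289-112578329, minus strand: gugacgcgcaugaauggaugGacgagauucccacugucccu
Ndp, chrX:16905138-16905178, minus strand: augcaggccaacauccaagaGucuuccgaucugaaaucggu
Iqcm, chr8:75659337-75659377, plus strand: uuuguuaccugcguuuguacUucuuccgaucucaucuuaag

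The Ndp and Iqcm windows share a run of 11 letters, UCUUCCGAUCU, directly after the called base. Written in DNA, common Illumina sequencing adapters end with the same letters. On the strand of the site and within 20 nt of it, the run stood at 55 of the 30738 deep intron sites of NPC noXL (0.179%, 0.138 to 0.233) and 23 of those of ESC noXL (0.0597%, 0.0398 to 0.0895), sites by which it was found included. In ESC it stood at 23 WT (0.0259%) and 59 ΔZF1 sites (0.137%), and in NPC at 19 (0.0478%) and 14 (0.0338%). In windows 200 nt to either side the share was at most 0.00130% in any list. In NPC noXL 81.8% of such sites had a score above 90% of the list's scores, against 8.62% of all its deep intron sites. Sites with this property were thus rare but mostly high in score, and were more frequent in the control lists of both cell types than in the WT lists. Their part in the results below was small: leaving out every site with the shorter run CCGAUC within 20 nt moved the WT to ΔZF1 ratio from 2.06 to 2.07 in ESC and kept it at 0.959 in NPC.

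Deep intron sites in ESC numbered 88962 (WT), 43162 (ΔZF1) and 38541 (noXL). In NPC they numbered 39728 (WT), 41415 (ΔZF1) and 30738 (noXL). The share of the list they took was, in ESC, 19.7% of the 451137 WT sites, 18.6% of the 231636 ΔZF1 sites and 24.2% of the 158968 noXL sites. For NPC the same shares were 16.6% of 239258, 26.1% of 158490 and 28.7% of 107227. The unirradiated lists thus held the largest deep intron share in both cell types, and NPC ΔZF1 stood nearer to its control than to NPC WT.

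In ESC, the WT list held 2.06 times as many deep intron sites as the ΔZF1 list (2.04 to 2.08), slightly above the ratio for exon sites, 1.93 (1.91 to 1.94). In NPC, it held 0.959 times as many (0.946 to 0.973), while for exon sites of the same lists the ratio was 1.82 (1.80 to 1.83). Intron sites within 500 nt of an exon fell between these, with a ratio of 1.16 (1.13 to 1.18). NPC WT had 1 library fewer than NPC ΔZF1, and per merged library the deep intron ratio was 1.28 and the exon ratio 2.42. The direction of the NPC difference thus turned with the way libraries were counted. Counting per library scales both ratios alike, so it could not change the gap between exons and deep introns. Among sites scoring at or above the median of all lists, 3.02, the NPC ratio was 0.535 (0.524 to 0.547). Each list was scored separately, with deep intron medians of 2.04 in NPC WT and 3.77 in NPC ΔZF1. This minimum left out a larger part of the WT sites, so the lower ratio cannot be told apart from the difference in score level. The difference in deep intron share, ΔZF1 minus WT, was -1.09 percentage points (-1.28 to -0.889) in ESC and 9.53 (9.26 to 9.79) in NPC. The ESC value did not keep its direction in every setting. It was 0.00812 (-0.197 to 0.214) without chromosome 11, where the interval includes 0. Among the higher scores it was 1.75 (1.48 to 2.03), again with 1 minimum for lists that were scored separately. Sequencing depth of the libraries was not in the lists and could not be set beside these counts.

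Against the unirradiated control, ESC WT had 2.31 times as many deep intron sites and NPC WT 1.29 times as many. ESC ΔZF1 exceeded its control 1.12 times and NPC ΔZF1 1.35 times. The corresponding ratios for exon sites were 3.17, 2.87, 1.64 and 1.58. NPC WT merged 3 libraries and its control 4, and per merged library its ratios were 1.72 for deep introns and 3.83 for exons. The other ratios stay the same per library, so NPC ΔZF1 lay above NPC WT per list and below it per library. In all 4 irradiated lists deep introns therefore stood less far above the control than exons did.

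The base under the site separated irradiated from unirradiated lists. Uridine lay under 64.2% of the WT (63.9 to 64.6) and 53.1% of the ΔZF1 deep intron sites (52.6 to 53.6) in ESC, and under 66.7% (66.3 to 67.2) and 62.1% (61.6 to 62.5) in NPC. It lay under 32.5% of the sites of ESC noXL and 31.9% of those of NPC noXL. Had the sites of each gene been spread evenly over its deep intron bases, between 31.0% and 31.7% would have been uridine in the 6 lists, close to the uridine share of the control lists. For the other bases the control lists were further from an even spread: C lay under 25.9% of NPC noXL sites against 20.3% expected and G under 16.5% against 21.7%, and A under 28.7% of ESC noXL sites against 26.4%. The difference, WT minus ΔZF1, was 11.1 percentage points (10.6 to 11.7) in ESC and 4.67 (4.01 to 5.33) in NPC.

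**Figure D1:**
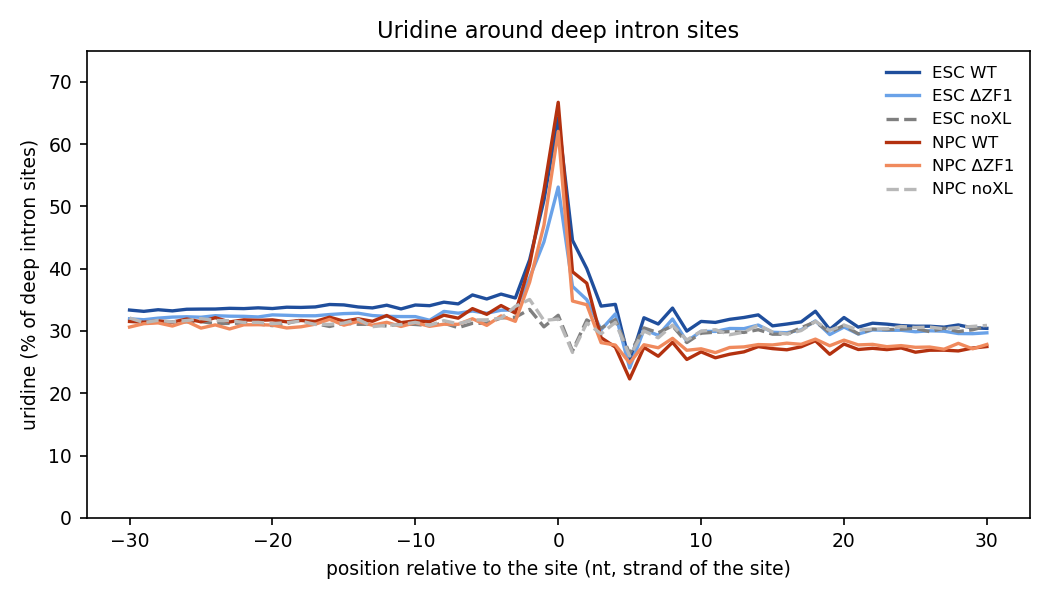
Percent of deep intron sites with uridine at each position from 30 nt before to 30 nt after the site, on the strand of the site, for the 6 lists (solid lines, irradiated; dashed, noXL). The irradiated lists peak at the site, between 53.1% and 66.7%, and the noXL lists lie at 32.5% and 31.9% there.

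The rise in uridine was narrow. Directly before the site the uridine share was 51.0% for WT and 44.3% for ΔZF1 in ESC, and 52.6% and 47.0% in NPC. Directly after the site these shares were 44.6%, 37.2%, 39.5% and 34.8%. At 10 nt before the site all 6 lists lay between 31.1% and 34.2%, as the plot of uridine by position shows. Divided by base, the ratio of ESC WT to ESC noXL was 4.56 at uridine and 1.22 at the other bases, and that of NPC WT to NPC noXL was 2.70 and 0.632. For ΔZF1 the ratios to noXL were 1.83 and 0.778 in ESC and 2.62 and 0.751 in NPC. At bases other than uridine, ESC WT was thus the only irradiated list with more deep intron sites than its control.

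Runs of uridine were the 5-letter word that gained most in ESC WT. UUUUU lay within 10 nt of 14.9% of ESC WT sites (14.6 to 15.1), against 7.22% of windows 200 nt to either side, a ratio of 2.06 and the highest of all 1024 words in that list. The ratio was 1.88 for the WT list of NPC, 1.52 and 1.37 for the ΔZF1 lists of ESC and NPC, and below 1 in ESC noXL (0.874) and NPC noXL (0.805). UGUGU, a word many RNA-binding proteins favour, had ratios of 1.46 (WT) and 1.27 (ΔZF1) in ESC, of 1.41 and 1.27 in NPC, and of 1.01 and 0.923 in the noXL lists of ESC and NPC. GGGGG was more frequent near the sites of every list, irradiated or not, with ratios of 1.54 (NPC ΔZF1) to 2.40 (ESC ΔZF1), and ranked between 1 and 5 of all words in each list. AAAAA was less frequent near the sites of the irradiated lists, with ratios of 0.672 (WT) and 0.770 (ΔZF1) in ESC and of 0.565 and 0.602 in NPC, and not in noXL, where they were 1.08 and 1.05. GGUAA, which resembles the start of an intron, stood at 0.820 to 0.903 in all 6 lists. These are word counts around called nucleotides and name no factor.

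Intron sites, deep or near an exon, stood alone more often than exon sites did in ESC WT and NPC WT. In ESC WT 73.7% of deep intron sites had no other site of the list within 8 nt, against 75.1% of near intron sites (those at most 500 nt from an exon) and 62.4% of exon sites, and in NPC WT 78.4% against 79.7% and 70.1%. For deep intron and exon sites the shares were 81.7% and 79.7% in ESC ΔZF1, and 89.1% and 90.1% in NPC ΔZF1, where the order was the opposite. The noXL lists had 88.9% and 92.1% of deep intron sites standing alone, so NPC ΔZF1 lay between the 2 control lists in this respect. Sites in runs of 3 or more made up 6.27% and 4.00% of the WT deep intron sites of ESC and NPC, and 2.92% and 0.319% of the ΔZF1 ones.

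The score PureCLIP gave to a site was lower in introns than in exons of the WT lists. The median score of deep intron sites was 2.13 in ESC WT, against 2.25 for near intron and 2.81 for exon sites, and 2.04 in NPC WT, against 2.04 and 2.61. The ΔZF1 lists had deep intron medians of 2.36 (ESC) and 3.77 (NPC), and the noXL lists 4.44 and 3.97. Since each list was scored on its own merged reads, levels were compared within a list, except where 1 minimum score was set for all lists. Of ESC WT and NPC WT deep intron sites, 5.03% and 3.70% scored above 90% of their list, against 5.97% in ESC ΔZF1 and 9.27% in NPC ΔZF1. Uridine did not follow the score in 1 way: from the lowest to the highest 20% of scores its share went from 63.1% to 69.7% in NPC WT and from 60.0% to 63.2% in NPC ΔZF1, but from 61.3% to 62.9% in ESC WT and from 53.9% to 50.7% in ESC ΔZF1. For noXL it went from 32.9% to 30.4% in ESC and from 31.9% to 29.7% in NPC.

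Most deep intron nucleotides were called once. Of the 273751 distinct nucleotides, 266713 were called in a single list and 51 in all 6. Of ESC WT sites, 7.64% had an ESC ΔZF1 site within 5 nt (7.46 to 7.81), 6.06% an NPC WT site and 4.15% an ESC noXL site. For sites moved 500 or 1000 nt along the strand the shares were 2.74%, 1.82% and 2.03%, so the real positions exceeded the moved ones 2.79, 3.32 and 2.05 times. Of NPC WT sites, 5.94% had an NPC ΔZF1 site within 5 nt, 3.52 times the moved share, and 3.11% an NPC noXL site, 2.36 times. The highest shares were towards the longest list: 13.9% of ESC ΔZF1 and 12.4% of NPC WT sites had an ESC WT site within 5 nt, against moved shares of 5.30% and 3.83%. The 1967 nucleotides called in both WT lists were uridine in 68.7% of cases (66.7 to 70.7), and the 354 called in both noXL lists in 18.9% (15.2 to 23.3). Of the latter, 60.5% lay in repeats.

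Introns differed in length between the cell types. The median length of the intron that held a site was 9141 nt (WT), 9384 nt (ΔZF1) and 10539 nt (noXL) in ESC. The medians for NPC were 12532, 15455 and 16038 nt in the same order. Introns over 50 kb held 9.02% to 12.4% of the sites in the 3 ESC lists, with WT at 11.04%, but 18.6% for WT, 22.4% for ΔZF1 and 19.7% for noXL in NPC. All 3 NPC lists, the control included, thus had more of their sites in very long introns than any ESC list. With sites spread evenly over the deep intron bases of each gene, the expected shares were 9.34%, 8.24%, 11.3%, 15.0%, 18.7% and 16.2%, so most of the difference between cell types was already set by which genes held sites, and each list held somewhat more than expected.

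**Figure D2:**
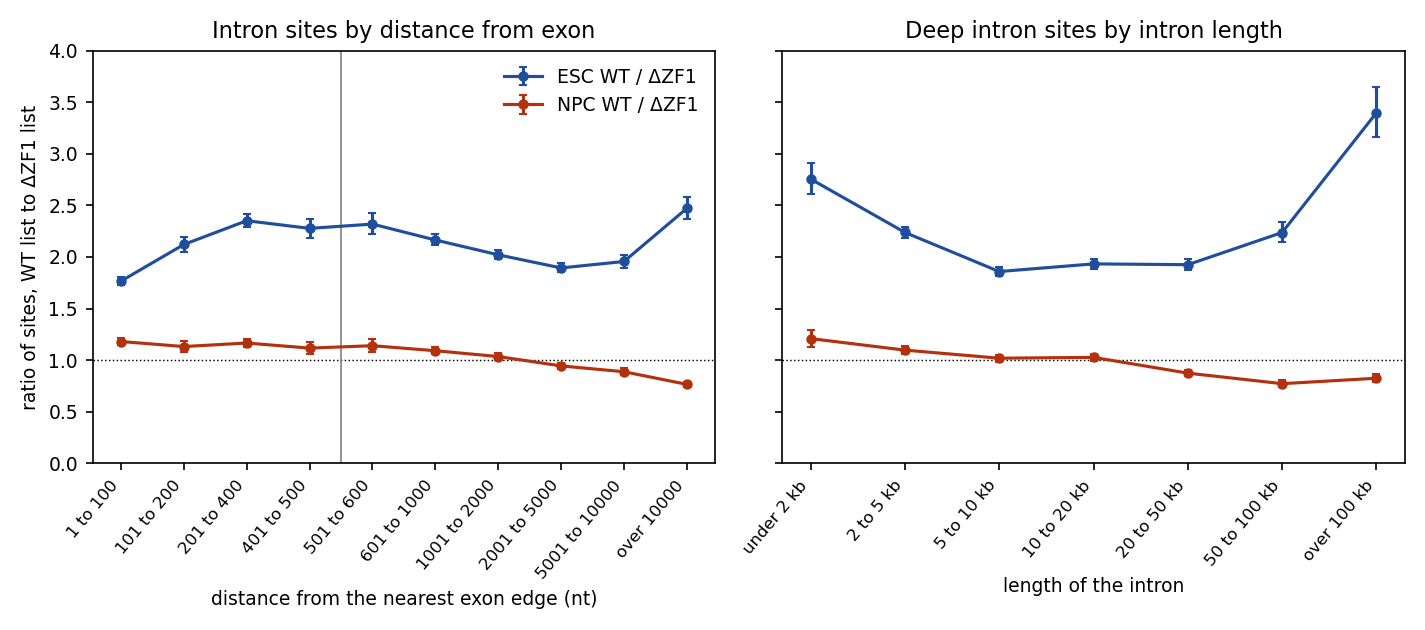
Ratio of the number of sites in the WT list to that in the ΔZF1 list, for intron sites by distance from the nearest exon edge (left; sites right of the grey line, over 500 nt, are deep intron sites) and for deep intron sites by length of the intron (right), with 95% intervals of counting error. The NPC ratio falls from 1.14 in the 100 nt just inside that limit to 0.765 over 10 kb, while the ESC ratio lies between 1.77 and 2.47 in the left panel and between 1.86 and 3.40 in the right one.

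The ratio of WT to ΔZF1 changed with depth in the intron in NPC. In the 100 nt just outside the limit of 500 nt it was 1.12 (1.06 to 1.18) in NPC and 2.28 (2.19 to 2.37) in ESC, and in the 100 nt just inside 1.14 (1.08 to 1.20) and 2.32 (2.22 to 2.42), with no step at the limit. In NPC it then declined to 1.03 at 1 to 2 kb, 0.943 at 2 to 5 kb, 0.887 at 5 to 10 kb and 0.765 (0.739 to 0.792) over 10 kb. In ESC it went down to 1.89 at 2 to 5 kb and was 2.47 (2.37 to 2.58) over 10 kb. Without chromosome 11 the values just inside the limit and over 10 kb were 1.04 and 0.710 in NPC, and 2.13 and 2.21 in ESC. The uridine share just outside and just inside the limit was 65.8% and 66.8% in NPC WT and 61.9% and 63.0% in NPC ΔZF1.

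By intron length the same lists gave a ratio of 1.21 (1.13 to 1.29) in introns under 2 kb, 1.02 at 5 to 10 kb, 0.771 (0.739 to 0.805) at 50 to 100 kb and 0.824 (0.789 to 0.860) over 100 kb in NPC. In ESC it was 2.76 under 2 kb, 1.86 at 5 to 10 kb, 2.24 at 50 to 100 kb and 3.40 (3.16 to 3.65) over 100 kb. The ESC value for the longest introns rested on 3256 WT sites in 84 genes, of which 5 genes held 49.8% and Exoc4 alone 15.5%, and it was 2.85 without chromosome 11. NPC ΔZF1 had deep intron sites over 100 kb in 181 genes and NPC WT in 107.

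Distance from the gene start gave a related picture. The median distance of a site from the start of its gene was 20032 nt for WT, 16638.5 for ΔZF1 and 19797 for noXL in ESC, and 20355.5, 24499 and 21410 nt in NPC. Under 10 kb from the start, the NPC ratio of WT to ΔZF1 was 1.11 (1.08 to 1.14), at 50 to 100 kb 0.822 (0.792 to 0.853) and over 100 kb 0.674 (0.647 to 0.702). In ESC the ratio was lowest under 10 kb, 1.78 (1.75 to 1.82), 2.38 at 50 to 100 kb and 2.18 (2.09 to 2.28) over 100 kb. The ratio thus fell along the gene in NPC, while in ESC it was higher at 50 to 100 kb than near the start and lower again beyond. Without chromosome 11 the NPC values ran from 0.992 to 0.633 and the ESC values under 10 kb, at 50 to 100 kb and over 100 kb were 1.59, 2.18 and 1.94. Compared with an even spread over each gene, all 6 lists had more sites than expected under 10 kb, from 1.10 times in ESC WT to 1.28 times in NPC noXL, and fewer over 100 kb, from 0.68 times in NPC noXL to 0.95 times in ESC ΔZF1, so the tilt towards the gene start was as large in unirradiated RNA.

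Within introns over 10 kb, sites leaned to the 5′ side in every list. With such introns cut into 10 equal stretches (leaving out the 500 nt at each end), the most 5′ stretch held between 17.8% (ESC noXL) and 20.5% (NPC WT) of their deep intron sites and the most 3′ stretch between 4.07% (NPC noXL) and 5.19% (ESC WT), where an even spread would give 10% each. The irradiated and the unirradiated lists shared this slope.

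The first intron of the reference transcript held 29.6% of the WT (29.3 to 29.9) and 32.5% of the ΔZF1 deep intron sites (32.1 to 33.0) in ESC, and 32.9% (32.4 to 33.3) and 32.8% (32.3 to 33.2) in NPC. The noXL lists had 32.1% in ESC and 35.2% in NPC, and an even spread would have given between 29.5% and 31.2%. WT minus ΔZF1 was -2.98 percentage points (-3.52 to -2.45) in ESC and 0.0860 (-0.560 to 0.732) in NPC, where the interval includes 0. The base under the site hardly depended on the intron: uridine lay under 63.7% of sites in the first intron and 64.5% of those in later introns in ESC WT, and under 62.1% in both in NPC ΔZF1. First introns were long, with a median of 18833 nt around ESC WT sites against 6118 nt for later ones, and 29569 against 9479 nt in NPC ΔZF1.

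Sequence marked as repeat held 34.0% (WT), 34.2% (ΔZF1) and 34.6% (noXL) of the deep intron sites of ESC, slightly above the 32.3% to 32.8% of an even spread. In NPC the shares were 28.8% in WT, 25.5% in ΔZF1 and 30.3% in noXL, below the 30.4%, 29.2% and 30.9% expected. The uridine share at repeat sites differed from that outside them by at most a few percentage points, and not in 1 direction. It was 65.3% (64.8 to 65.9) against 63.7% (63.3 to 64.1) for WT, 52.1% against 53.7% for ΔZF1 and 31.1% against 33.3% for noXL in ESC. The NPC lists had 67.7% against 66.3%, 62.8% against 61.8% and 31.9% against 31.9% in the same order. Between 3.82% and 4.94% of the sites of each list lay in an exon that RefSeq places on the same strand but GENCODE does not.

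Chromosome 11 stood apart. It held 17.4% of the WT (17.1 to 17.6) and 16.1% of the noXL deep intron sites of ESC, and 15.4% and 13.8% of those of NPC, but 8.38% and 6.59% of the ΔZF1 ones. The ratio of WT to ΔZF1 on chromosome 11 was 4.27 (4.12 to 4.43) in ESC and 2.24 (2.14 to 2.34) in NPC. Across the other 19 chromosomes apart from Y it ran from 1.61 to 2.20 in ESC and from 0.719 to 1.14 in NPC. The ratio of ΔZF1 to noXL, 0.582 in ESC and 0.645 in NPC on chromosome 11, was 1.22 and 1.46 over the rest of the genome. The lists of the WT line, irradiated or not, were thus together on this chromosome and the ΔZF1 lists apart from them. For exon sites the shares on chromosome 11 were closer, 10.4% for WT against 8.21% for ΔZF1 in ESC, and 10.1% against 7.65% in NPC. Without chromosome 11, the WT to ΔZF1 ratio of deep intron sites was 1.86 in ESC and 0.869 in NPC.

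**Figure D3:**
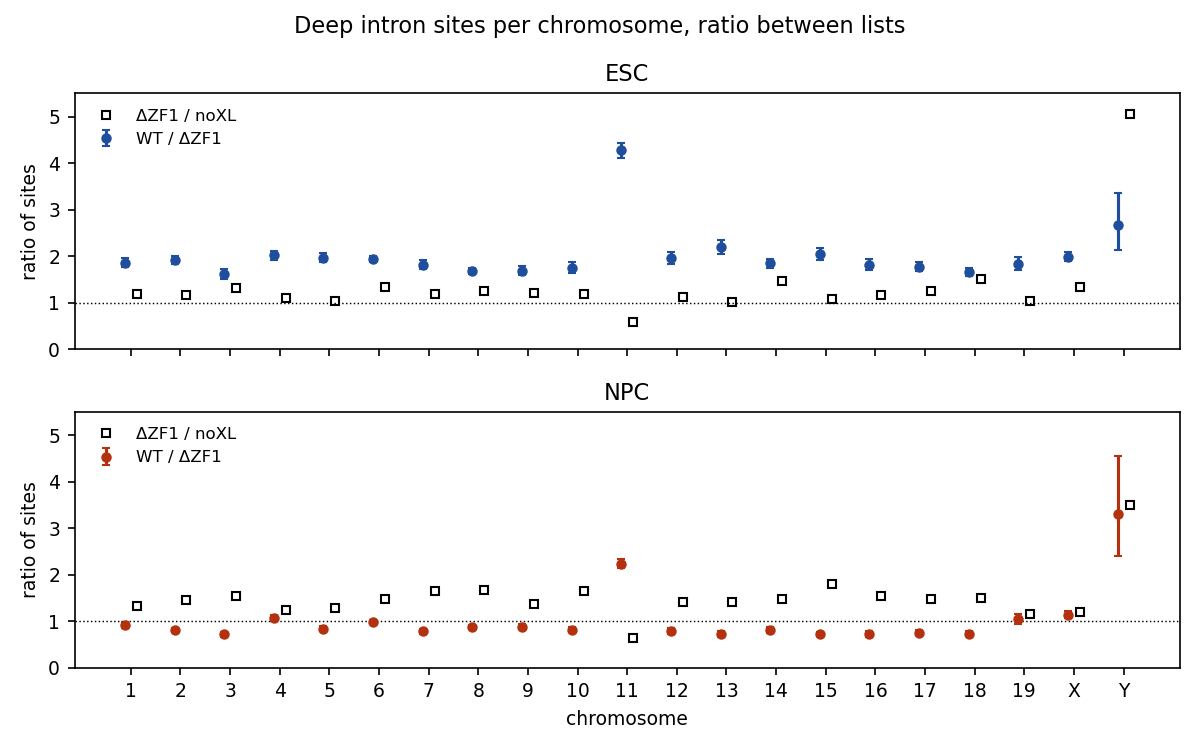
Ratio of deep intron sites between lists for each chromosome, WT to ΔZF1 (filled circles, with 95% intervals of counting error) and ΔZF1 to noXL (open squares), in ESC (top) and NPC (bottom). Chromosome 11 has the highest WT to ΔZF1 ratio of the chromosomes other than Y, 4.27 in ESC and 2.24 in NPC, and a ΔZF1 to noXL ratio of 0.582 and 0.645.

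Deep intron sites fell in 3175 (WT), 3033 (ΔZF1) and 4221 (noXL) genes in ESC and in 2832, 3908 and 3874 genes in NPC. The 10 genes with most sites held 8.05% of the sites of ESC WT and 9.41% of those of NPC WT. Of the 2022 genes holding 5 or more in ESC WT, 1389 (68.7%) had at least 5 in ESC noXL, which is 79.5% of the ESC noXL genes. NPC WT and NPC noXL shared 1030 such genes, 71.7% of the former and 71.8% of the latter. Across cell types, ESC WT shared 1144 such genes with NPC WT, 56.6% of the former and 79.7% of the latter. With NPC noXL it shared 1030, 50.9% and 71.8%. Most genes with deep intron sites in a WT list thus had them without UV, but lists of different cell types also overlapped widely. Bulk counts of this kind cannot tell a stronger contact from a more abundant transcript, and no RNA level was set beside them.

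The gene with most deep intron sites in ESC WT was Kat6b, a histone acetyltransferase (mm10 chr14:21481434-21672478, plus strand), with 1462, of which 872 lay in its intron 2. The ΔZF1 and noXL lists of ESC had 798 and 451 there, and the 3 NPC lists had 3, 2 and 3. Exoc4, a subunit of the exocyst that tethers vesicles at the membrane, was high in both cell types, with 793, 251 and 242 sites in ESC WT, ΔZF1 and noXL and 570, 519 and 323 in NPC. Per 10 kb of deep intron the order was different: Kat6b had 91.9 sites in ESC WT, Pias2, a SUMO ligase, 86.4, Trip12, a ubiquitin ligase, 85.8, and Ncor1, a nuclear receptor corepressor, 67.9, against 11.6 for Exoc4. Kansl1, a subunit of a chromatin acetylation complex, had 62.0 and Ankrd11, a chromatin regulator, 48.1. The other genes among the 10 highest by number were Ranbp17, Cobl, Pias2 and Tead1, with 618, 616, 613 and 572 sites.

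In NPC WT, Exoc4 was followed by Magi1, a scaffold protein of cell junctions, with 500, 524 and 258 sites (WT, ΔZF1 and noXL), and 364, 56 and 134 in ESC. Grip1, which anchors glutamate receptors, had 400, 395 and 156 in NPC and 4, 2 and 9 in ESC. All 400 and 395 of its irradiated NPC sites lay in no intron of its reference transcript. Rbpms, an RNA-binding protein, had 369, 343 and 218 in NPC and 124, 141 and 73 in ESC. Ssbp3, a cofactor of LIM-domain transcription factors, had 291, 150 and 121 in NPC, and 0, 0 and 10 in ESC. Ankrd11 (373), Etl4 (303), Kansl1 (281) and Msi2 (242) were also among the 10 highest. Per 10 kb of deep intron these genes ran from 29.8 in Rbpms and 28.6 in Ankrd11 to 3.54 in Etl4, beside a median of 2.59 over all genes with a deep intron site in NPC WT.

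**Figure D4:**
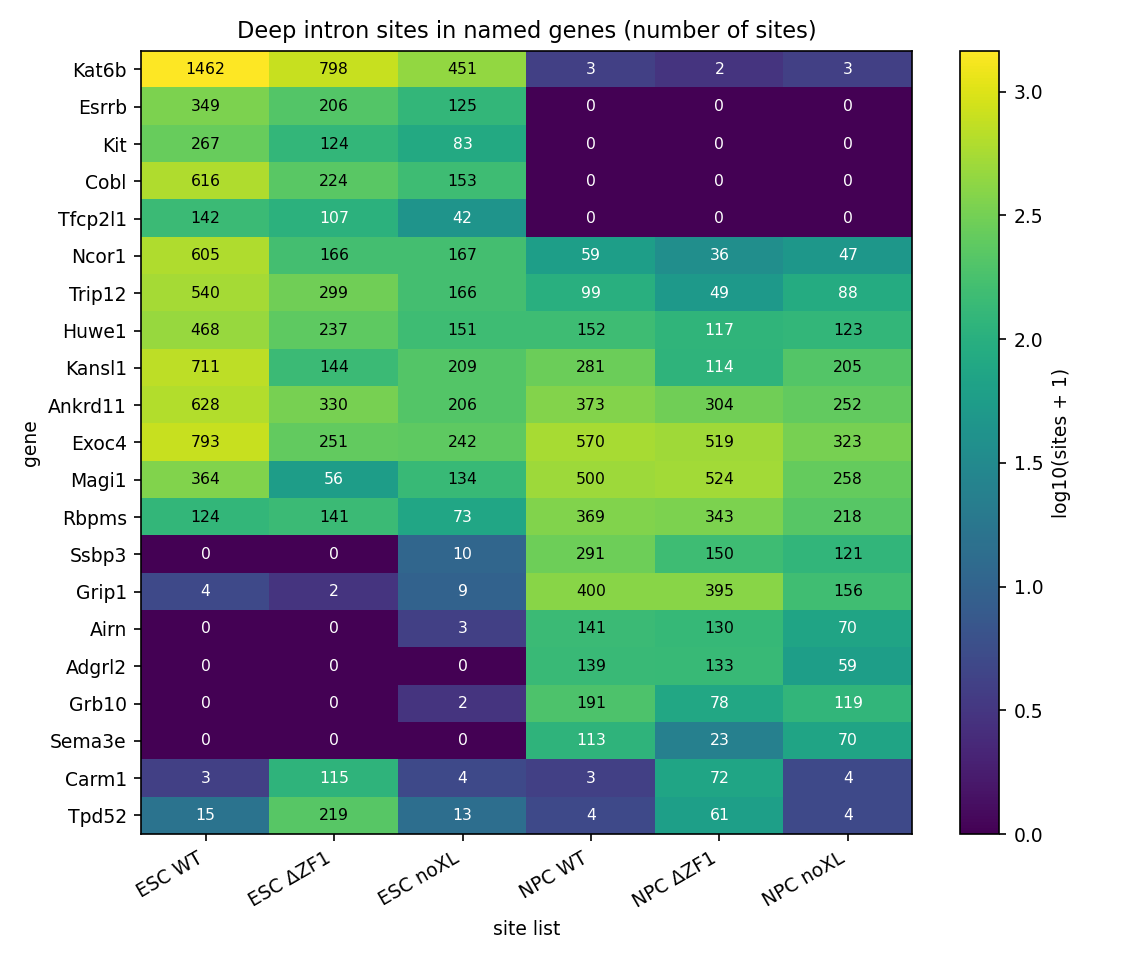
Number of deep intron sites in each of the 6 lists (columns) for 21 named genes (rows), with colour on a log10(sites + 1) scale. Kat6b, Esrrb, Kit, Cobl and Tfcp2l1 have at most 3 sites in any NPC list, Airn, Adgrl2, Grb10 and Sema3e have at most 3 in any ESC list, and Carm1 and Tpd52 are highest in the ΔZF1 lists.

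Gene by gene, NPC WT was set against ESC WT as the log2 ratio of deep intron sites, with a pseudocount of 1 and scaled to the deep intron sites of each list. Among 1296 genes (those with 20 or more sites over the pair of lists), 230 were at a ratio of 1 or above, 17.7% of those tested, and 376 at -1 or below, 29.0%, with a median of -0.25. Before scaling the split was 120 higher and 831 lower and the median -1.42. Esrrb, a pluripotency factor, had 349 WT sites in ESC and 0 in NPC, at least 52.0-fold fewer as a share of the list against a floor of 3 sites. Cobl, an actin nucleator, went from 616 to 0 (at least 91.7-fold), the receptor tyrosine kinase Kit from 267 to 0 (at least 39.7-fold), and the adenylate kinase Ak4 from 224 to 0 (at least 33.3-fold). Kat6b had a scaled log2 ratio of -7.35 (-9.32 to -6.21). In the other direction, Ssbp3 went from 0 to 291 (at least 217-fold), Grb10, an imprinted adaptor of insulin receptor signalling, from 0 to 191 (at least 143-fold), Airn, an imprinted noncoding RNA, from 0 to 141 (at least 105-fold) and Adgrl2, an adhesion receptor, from 0 to 139 (at least 104-fold). All these genes moved in the same direction in noXL: Esrrb had 125 sites in ESC noXL and 0 in NPC noXL, and Grb10 2 and 119.

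By group, the naive pluripotency genes had 811, 457 and 235 deep intron sites in ESC (WT, ΔZF1 and noXL), and 1, 4 and 0 in NPC. All 7 of the 14 listed that could be compared were lower in NPC WT, with a median of -4.54. Esrrb, Tfcp2l1 (142 sites in ESC WT) and Fbxo15 (128) had most. The formative and early neural genes had 0, 1 and 5 sites in the ESC lists and 84, 94 and 72 in the NPC lists, and these 19 genes were nearly empty, with sites in 4 of them in NPC WT. Meis2 held 57 of the 84 NPC WT sites and was the only 1 of the 19 that could be compared between the WT lists. The totals of both groups thus followed the cell type labels in irradiated and control lists, but the neural side of NPC WT rested mostly on Meis2. Axon guidance genes had 13, 26 and 27 sites in ESC and 124, 194 and 102 in NPC, of which Sema3e, a guidance cue, held 113 in NPC WT. Long cell adhesion and scaffold genes took 2.34% of the WT sites in ESC and 3.77% in NPC, and 6 of the 10 compared were higher in NPC WT and 2 lower. Chromatin regulators took 5.81% in ESC WT and 3.63% in NPC WT, with 8 higher and 6 lower of 26 and a median of -0.06. Kat6b alone held 1462 of their 5173 sites in ESC WT. HECT and related ubiquitin ligases had 1 higher and 4 lower of 8, with Trip12 (540 and 99 sites) and Huwe1 (468 and 152) at scaled ratios of -1.27 and -0.45. Imprinted genes had 5 higher and 1 lower of 8, and held 82 and 467 WT sites in ESC and NPC. Over all genes 17.7% were higher and 29.0% lower, the shares beside which these counts stand.

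Podxl and Grb10, the genes whose transcripts the study later truncated, differed in their introns. Podxl, a sialoglycoprotein of the cell surface, had 46 sites of all kinds in NPC WT, none of them in a deep intron, and 3 deep intron sites in NPC ΔZF1. Grb10 had 279 sites in NPC WT, 68.5% of them in deep introns, and of its 191 deep intron sites 150 lay in the first intron of the reference transcript. Grb10 had 78 deep intron sites in NPC ΔZF1 and 119 in NPC noXL, a scaled log2 ratio of ΔZF1 to WT of -1.34 (-1.73 to -0.97). It lies on chromosome 11 (mm10 chr11:11930508-12038683, minus strand), where the median ratio over the 104 genes compared was -1.22, so its value was close to that of its chromosome.

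For ΔZF1 against WT in ESC, 1233 genes were compared, those with fewer than 20 sites being left out. After scaling, 120 were at 1 or above (9.73%) and 196 at -1 or below (15.9%), with a median of 0.00. Before scaling the counts were 32 and 643 and the median -1.04, so 90.5% of the genes had fewer sites in ΔZF1. Chromosome 11 held 157 of the genes compared (12.7%), 98 of the 196 lower genes and 0 of the 120 higher ones, and its genes had a median of -1.31 against 0.12 elsewhere.

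Ratios were ranked where the pair of lists summed to 50 or more sites in the gene, and some genes below that sum had ratios beyond those named. Among the lowest were 3 genes of chromosome 11 that lie near each other. Hormad2, a meiotic chromosome protein, had 63, 0 and 39 sites in ESC (WT, ΔZF1 and noXL), at least 10.2-fold fewer in ΔZF1 than in WT as a share of the list. Mtmr3, a phosphoinositide phosphatase, had 60, 0 and 53, at least 9.70-fold fewer. Znrf3, a ubiquitin ligase that removes Wnt receptors, had 223, 6 and 71, a scaled log2 ratio of -3.96 (-5.31 to -3.03). In NPC, Hormad2 had 9, 0 and 1 sites, Mtmr3 32, 9 and 33, a ratio of -1.78, and Znrf3 115, 63 and 56. Zfand3, with 60 and 1 sites, and the recombination gene Rad51b, with 71 and 2, completed the 5 lowest of these genes.

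With the same minimum of 50, the highest ratios in ESC were those of Carm1, Gm44748, Tpd52, Etv5 and Gm30228. Carm1, an arginine methyltransferase (mm10 chr9:21546894-21592623, plus strand), had 115 (ESC) and 72 (NPC) deep intron sites in the ΔZF1 lists, against 3 and 3 in the WT lists and 4 and 4 in the noXL lists. The scaled log2 ratio was 5.90 (4.73 to 7.88) in ESC and 4.13 (2.94 to 6.11) in NPC. Of these sites 101 and 59 lay in the first intron, at a median of 7.91 and 7.82 kb from the gene start. Counting sites of every class, Carm1 had 76 sites in ESC WT, of which 3.95% were in deep introns, and 155 in ESC ΔZF1, of which 74.2% were. Carm1 is the gene next to the Tigre locus, where the rescue transgenes of both lines were placed, and the part of the transgene in these sites was not tested. Tpd52 had 219 sites in ESC ΔZF1 and 61 in NPC ΔZF1 against 15 and 4 in WT, and Etv5, an ETS transcription factor, 81 and 22 against 14 and 2. Gm44748 and Gm30228, lincRNA genes, had 64 and 83 sites in ESC ΔZF1, 2 and 28 in ESC WT, and at most 4 in any NPC list.

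For ΔZF1 against WT in NPC, 939 genes were compared, of which 143 were higher (15.2%) and 141 lower (15.0%), with a median of -0.18. Before scaling the counts were 151 and 135 and the median -0.12, and when scaled to all sites of each list instead they were 293 and 45 with a median of 0.48. Chromosome 11 held 104 of the genes compared, 63 of the lower ones (44.7%) and 1 of the higher. Rps6ka6, a ribosomal S6 kinase gene, was the lowest of all, with 238, 6 and 97 sites (WT, ΔZF1 and noXL), a ratio of -5.15 (-6.51 to -4.23). Meis2, a homeobox factor of the developing brain, had 57, 7 and 28. The other 3 of the 5 lowest given that minimum of 50, Psmd11, Luc7l3 and Tnrc6c, each had 43 sites in NPC WT and 7 in NPC ΔZF1 and lie on chromosome 11.

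Several genes had deep intron sites in NPC ΔZF1 and next to none in NPC WT. Zfhx3, a zinc finger homeobox factor, had 70 and 0 (at least 22.4-fold), with 15 in NPC noXL. Lgr4, a receptor for R-spondins, had 51 and 0 (at least 16.3-fold), Slit3, a guidance ligand, 62 and 2, and Shroom3, an actin regulator of neural tube closure, 76 and 3. Efna5, an ephrin ligand, had 85 and 7, with 14 in NPC noXL. Of the genes with a role in axon guidance 3 were compared, with 2 higher (Slit3 and Efna5) and 1 lower, Sema3e, with 113 sites in WT and 23 in ΔZF1. Chromatin regulators had 1 higher and 2 lower of 26 and a median of -0.11, and long adhesion and scaffold genes 1 higher and 0 lower of 9. In ESC ΔZF1, chromatin regulators had 2 higher and 0 lower of 21 with a median of 0.17, and long adhesion and scaffold genes 0 higher and 2 lower of 8, Magi1 at -1.64 and Wwox at -2.16. The overall shares in NPC, 15.2% and 15.0%, and in ESC, 9.73% and 15.9%, are the level beside which to read these counts.

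**Figure D5:**
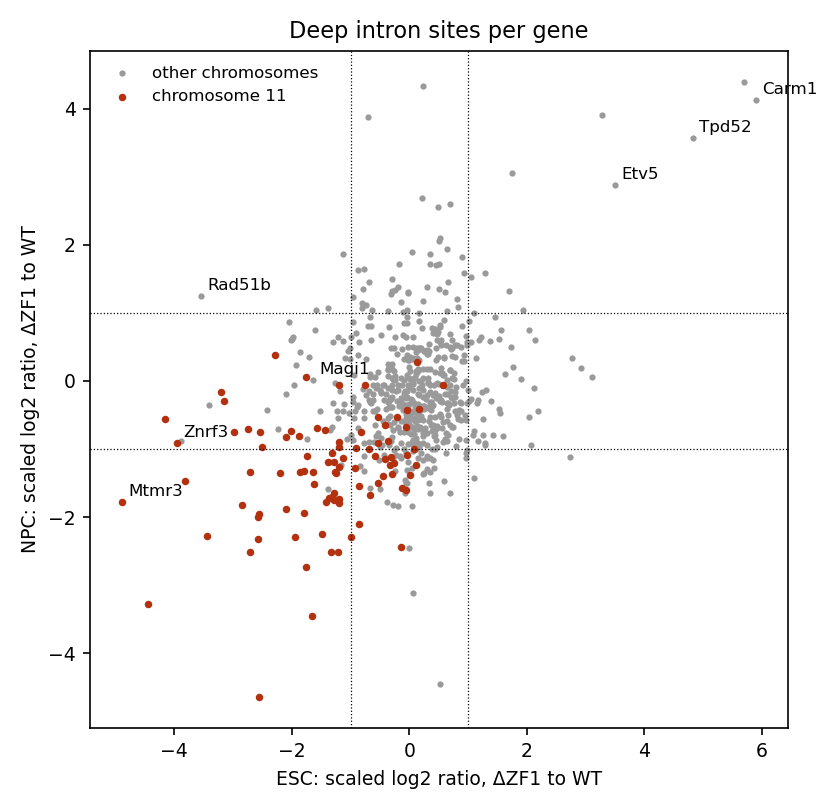
Scaled log2 ratio of deep intron sites, ΔZF1 to WT, in ESC (x axis) and NPC (y axis) for the 686 genes compared in both cell types, each point a gene; dotted lines mark 1 and -1. Genes of chromosome 11 (red) lie mostly below 0 on both axes, and Carm1, Tpd52 and Etv5 lie above 1 on both.

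The comparisons in ESC and NPC share no list, but they come from the same WT and ΔZF1 lines, so a difference between the lines would enter both. Their calls were set side by side for the 686 genes compared in both. Lower in both were 42 genes, of 101 lower in ESC and 115 lower in NPC, and 39 of the 42 lie on chromosome 11, among them Med13, Ogdh and Nlk, beside 91 of the 686 genes compared. Higher in both were 11 genes, of 54 and 60, and none lies on chromosome 11. Carm1, Tpd52 and Etv5 were among these 11. Opposite calls were made for 2 genes that were higher in ESC and lower in NPC and 4 the other way round, Rad51b among the latter with ratios of -3.54 and 1.25. The genes shared by both ΔZF1 comparisons were thus to a large part those of a single chromosome, on which the lists of the WT line without UV sided with the WT lists.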

How the data were processed

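CTCF iCLIP2 site lists of 6 groups (23 libraries, each group merged) were analysed. The authors trimmed and demultiplexed the reads, aligned them to mm10 with STAR, removed duplicates with UMI-tools and shifted reads to the crosslinked nucleotide with bedtools. They merged the replicates of a group and called sites with PureCLIP. Versions are not given in the sources used here. Each deposited list gives 1-nt sites with a strand and a score, which is PureCLIP's own and was compared within a list, except in 1 alternative that set the same minimum score for all lists. The score column is the only measurement the authors deposited in these files; read depth is unknown.

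Sites were counted with Python 3.11.15, numpy 2.4.6 and pandas 2.3.3. A site was given to the smallest same-strand GENCODE gene body. The intron was that of the reference transcript, protein coding and basic first, then principal, then longest. Between 3.72% (ESC WT) and 5.19% (NPC ΔZF1) of deep intron sites lay in no intron of that transcript. They were kept in the totals of the intron shares and left out of the intron lengths. Expected shares spread the sites of each gene evenly over its deep intron bases. Repeats are the soft-masked bases of RefSeq GRCm38. Shares have 95% Wilson intervals, differences Newcombe intervals. The counting steps were tested on simulated data. Gene ratios used a pseudocount of 1 and genes whose sites over the pair of lists reached 20, called at 1 or -1. Named were, for either WT list, the 10 genes highest in number, the 5 highest and 5 lowest ratios among genes with at least 50 sites, Podxl, Grb10 and examples of 7 gene lists; Efna5, Wwox, Med13, Ogdh and Nlk were named after their values were seen. The sites, gene lists and tests were chosen with earlier results of these data known. Some genes that met the rule are not reported here.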

Additional observations from a re-analysis of the deposited data

Results flagged for a closer look

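Each of these results had values of opposite sign, or ratios on opposite sides of 1, in ESC and NPC, which marked it for a closer look. With a single merged list per group the difference between the cell types was not tested. The WT list held 2.06 times as many deep intron sites as the ΔZF1 list in ESC and 0.959 times as many in NPC, where it was 1.28 per library and 1.03 at uridine only. The share of deep intron sites in the list, ΔZF1 minus WT, was -1.09 percentage points in ESC and 9.53 in NPC. The ESC value was 0.00812 without chromosome 11 and 1.75 among the higher scores. The share in the first intron, WT minus ΔZF1, was -2.98 percentage points in ESC and 0.0860 (-0.560 to 0.732) in NPC, an interval that includes 0, and the NPC value was below 0 in 6 alternatives. For Rad51b, a gene of homologous recombination, ΔZF1 against WT gave a scaled log2 ratio of -3.54 in ESC, from 71 WT and 2 ΔZF1 sites, and one of 1.25 in NPC, from 22 and 56.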

How the results depend on the processing

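No paired analysis was possible because each group is 1 merged list, which also leaves no library to take out. Counting error is the only error known, and read depth, RNA level and cell line cannot be told apart from the differences. Of 164 alternative values, 95 kept their direction and stayed within their interval or within 1.5 times the count, 59 moved and 10 turned direction; causes were not tested unless the setting itself leaves out sites. Leaving out repeat or RefSeq exon sites or sites near CCGAUC, counting per library and counting uridine only were chosen after seeing the data. The minimum score of 3.02 was the same for all lists although each was scored separately. Values for the higher scores therefore also carry differences in score level between lists.

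For ESC, the WT to ΔZF1 ratio (2.06) was 2.49 at uridine only, 2.12 over 200 nt from an exon, 2.00 over 2000 nt, 1.68 for scores at or above the median of all lists, 1.95 with runs merged, 2.09 without sites near noXL and 1.86 without chromosome 11. For NPC (0.959) it was 1.28 per library, 1.03 at uridine only, 0.993 over 200 nt, 0.872 over 2000 nt, 0.535 for the higher scores, 0.898 with runs merged, 0.869 without chromosome 11 and 0.916 without repeats. The ESC deep intron share, ΔZF1 minus WT (-1.09), was -2.02 over 200 nt, -0.223 over 2000 nt, 1.75 for the higher scores, -2.11 with runs merged and 0.00812 without chromosome 11. The NPC one (9.53) was 10.8 over 200 nt, 6.14 over 2000 nt, 13.5 for the higher scores, 8.65 with runs merged, 10.5 without chromosome 11, 9.19 without repeats and 9.15 without RefSeq exons.

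The uridine share, WT minus ΔZF1, was 12.7 in ESC and 7.15 in NPC for the higher scores, and in ESC 10.5 with runs merged and 10.0 without repeats. The ESC share in the first intron (-2.98) was -3.66 over 200 nt, -1.44 over 2000 nt and -2.23 with introns as gaps between merged exons. The NPC one (0.0860) was -0.0792 over 200 nt, 1.05 over 2000 nt, -0.00420 with runs merged, -0.741 without chromosome 11, -0.146 for protein coding genes, -1.06 with merged exons and -0.0114 without RefSeq exons.

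Genes higher and lower in ESC ΔZF1 (120 and 196) were 64 and 104 over 2000 nt, 63 and 84 for the higher scores, 255 and 307 from 10 sites, 62 and 114 from 40 sites and 32 and 643 unscaled, and without chromosome 11 the lower ones were 127. In NPC ΔZF1 (143 and 141) they were 315 and 241 from 10 sites, 62 and 75 from 40 sites and 293 and 45 scaled to all sites, and the higher ones were 85 over 2000 nt and 72 for the higher scores. For NPC WT against ESC WT (230 and 376) they were 120 and 195 over 2000 nt, 91 and 153 for the higher scores, 113 and 217 from 40 sites and 120 and 831 unscaled, and the higher ones were 390 from 10 sites.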
